A study of Mus musculus with 6 samples.

Results

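The genes described here are 4 genes of the CLCA family, Clca3a1, Clca3a2, Clca1 and Clca2, and Ano1, which codes for a calcium-activated chloride channel. They are 5 of the 54532 genes in the deposited read counts. They were selected on earlier results of the same comparison of genotypes, so their levels, fold changes and whether they passed the thresholds are given as a description, with no p, and no finding rests on them. Lung tissue came from 3 GRdim/dim and 3 littermate GR+/+ mice on a background of 129/SvEv x C57BL/6, aged 10 to 16 weeks. In GRdim/dim mice the glucocorticoid receptor (GR) gene Nr3c1 is altered by a point mutation, in every cell type, and the receptor pairs poorly into homodimers. Read counts of genes cannot check this mutation, so the genotype rests on the labels. All 6 mice, of both genotypes, had been anesthetized, ventilated and bled into hemorrhagic shock (HS), with the arterial pressure held at 35 mmHg over 1 h. They were then given back their blood and resuscitated for 4 h with colloids and norepinephrine, and no unshocked lung is part of the comparison. The share of females was larger among the GR+/+ mice, and the sex of each mouse is not in the labels.

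CLCA proteins were first taken for chloride channels that open on calcium. They are now known as secreted or surface-bound proteins that cut themselves, and some of them raise the activity of the channel ANO1 (TMEM16A). ANO1 passes chloride out of the cell when calcium rises inside it, and in the lung it is known from airway epithelium, where it wets the mucus, and from smooth muscle, where it favours contraction. Clca1 is known as a product of goblet cells. Clca3a1 is known from endothelial cells, lymphatic ones included, where its protein can bind integrins of white blood cells. Clca2 is known from stratified epithelia, where it binds the integrin subunit beta 4.

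Each library was made from poly(A) RNA of 1 mouse. Total counts were 16361747 to 32082940 in GR+/+ and 15687734 to 24444604 in GRdim/dim libraries, and GR+/+ replicate 3 was the deepest. Levels are given as CPM, the counts of a gene relative to the library's total scaled by the TMM method, and levels of different genes are compared only as CPM per kb of exons. Of 16568 genes with enough reads to be tested with edgeR, 28 passed as differentially expressed genes (DEGs, Benjamini-Hochberg adjusted p under 0.05 and a log2 fold change beyond 0.5), or 0.169% of genes, and 16 of these were lower in GRdim/dim lungs (0.0966%). Lung identity was checked on Sftpc, a surfactant gene of alveolar type 2 cells, at 9255 to 16369 CPM, and Scgb1a1, the secretoglobin of club cells, at 13801 to 27470 CPM. In whole lung, fewer cells of a type and less RNA per cell cannot be told apart.

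The 8 CLCA genes of the deposited counts lie side by side within 370 kb on the minus strand of chromosome 3, at chr3:144729677-145099443 of the mouse build GRCm38. Clca3a1 (ENSMUSG00000056025) is at chr3:144729677-144760977, Clca3a2 (ENSMUSG00000028262) at chr3:144796559-144819494, Clca1 (ENSMUSG00000028255) at chr3:145003817-145032776 and Clca2 (ENSMUSG00000036960) at chr3:145070263-145099443. Ano1 (ENSMUSG00000031075) is at chr7:144588549-144751974, also on the minus strand. These coordinates were the same in the GENCODE M21 annotation. The main coding transcript of each CLCA gene has 14 exons, and that of Ano1 has 25.

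Clca3a1 and Clca3a2 are near-copies. Their coding sequences are both 2706 bases long and are identical at 2627 of these (97.1%), with a longest identical run of 242 bases. The coding sequence of Clca1 is identical to that of Clca3a1 at 61.5% of aligned bases, and that of Clca2 at 60.2%. The stretch shown here, bases 175 to 294 of both coding sequences, lies within 1 coding exon of each gene, at chr3:144759177-144759296 in Clca3a1 and chr3:144817929-144818048 in Clca3a2 (GRCm38, minus strand). It was taken because its share of differing bases is closest to that of the whole coding sequence. Capitals mark the 4 of its 120 bases that differ and by which a read can be given to 1 of the genes.
Clca3a1: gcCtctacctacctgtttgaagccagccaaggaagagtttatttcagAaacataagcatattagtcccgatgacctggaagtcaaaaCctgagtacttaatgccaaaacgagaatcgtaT
Clca3a2: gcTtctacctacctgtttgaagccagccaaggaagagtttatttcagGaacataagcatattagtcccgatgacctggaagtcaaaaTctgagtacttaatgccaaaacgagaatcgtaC

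Of all windows of 31 bases in the main Clca3a1 transcript, 43.0% also occur in a transcript of another gene, and 36.8% in those of Clca3a2. For Clca3a2 44.5% of windows occur elsewhere. No window of Clca1, Clca2 or Ano1 does. How the counting treated reads that match several genes is not given in the sources used here, so the split of reads between Clca3a1 and Clca3a2 is uncertain. The antisense gene Gm34866 covers 170 exon bases of Clca3a1 out of 3899 and held 11 reads in all 6 libraries, and without strand its reads and those of Clca3a1 cannot be told apart there.

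Clca3a1 was lower in GRdim/dim lungs. It had 630, 519 and 616 reads in GR+/+ replicates 1, 2 and 3, or 37.6, 31.1 and 19.5 CPM. In GRdim/dim replicates 1, 2 and 3 it had 117, 72 and 74 reads, or 6.30, 2.99 and 4.77 CPM. Every GRdim/dim library lay below every GR+/+ library, and the lowest GR+/+ library was replicate 3. The log2 fold change was -2.65 ± 0.34 (SE of the edgeR fit, n = 3 per genotype), which is a level 6.29 times higher in GR+/+ lungs. Mean levels were 29.4 ± 9.14 CPM in GR+/+ and 4.69 ± 1.66 CPM in GRdim/dim lungs (SD, n = 3). Clca3a1 was among the 28 DEGs and had the 13th lowest log2 fold change of the 16568 genes. Over all genes, GRdim/dim libraries lay wholly below GR+/+ libraries in 7.05% and the genotypes did not overlap in either direction in 14.8%. Since the gene was chosen on this contrast, nothing is read from these shares.

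The fold change was kept in size but not always past the DEG threshold when a library was left out. It was -2.43 without GR+/+ replicate 1, -2.60 without GR+/+ replicate 2 and -2.67 without GRdim/dim replicate 3, and in these 3 fits Clca3a1 was not a DEG. It was a DEG in the other 3 such fits. With the reads of Clca3a1, Clca3a2 and Clca3b summed into 1 feature, the log2 fold change was -2.61 ± 0.32 (SE).

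Ano1 was well expressed in both genotypes, and the genotypes overlapped. Its level was 99.0, 54.5 and 78.2 CPM in GR+/+ replicates 1, 2 and 3 and 80.5, 48.0 and 52.2 CPM in GRdim/dim replicates 1, 2 and 3. The lowest library of all was a GRdim/dim one and the highest a GR+/+ one, but GRdim/dim replicate 1 was higher than 2 of the GR+/+ libraries. The log2 fold change was -0.36 ± 0.26 (SE, n = 3 per genotype), and Ano1 was not a DEG. Its log2 fold change was -0.14 without GR+/+ replicate 1 and -0.62 without GRdim/dim replicate 1. Replicate 1 of each genotype held the highest level of its group.

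The other CLCA genes chosen were close to the limit of detection and did not pass the filter on low counts, so that 2 of the 5 genes, Clca3a1 and Ano1, entered the fit. Clca1 had 0, 12 and 11 reads in GR+/+ replicates 1, 2 and 3 and 0 reads in each GRdim/dim library. Its reads thus came from 2 of the 3 GR+/+ mice. A count of 0 allows up to 3 reads in a library, which is 0.161, 0.124 and 0.193 CPM in GRdim/dim replicates 1, 2 and 3. Against the mean of these limits, the mean of GR+/+ lungs was at least 2.23-fold higher, but GR+/+ replicate 1 was at 0 like the GRdim/dim mice. GR+/+ replicates 2 and 3 were at 0.718 and 0.349 CPM, and the limit would be lower without replicate 2.

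Clca2 had 0, 7 and 6 reads in GR+/+ replicates 1, 2 and 3 and 5, 26 and 9 in GRdim/dim replicates 1, 2 and 3. Summed over the mice these are 13 against 40 reads, or a level 3.44 times higher in GRdim/dim lungs with a 95% exact interval of 1.80 to 7.002. The genotypes overlapped, since GRdim/dim replicate 1 at 0.269 CPM was below GR+/+ replicate 2 at 0.419 CPM, and 26 of the 40 reads were from GRdim/dim replicate 2. Clca3a2 had 0, 1 and 0 reads in GR+/+ and 0, 9 and 1 in GRdim/dim replicates 1, 2 and 3. Its ratio of GRdim/dim to GR+/+ was 11.2 with an interval of 1.59 to 485, and it rested on 1 mouse. These intervals cover counting error only, not the spread between mice, and reads without molecular identifiers are not independent molecules.

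**Figure D1:**
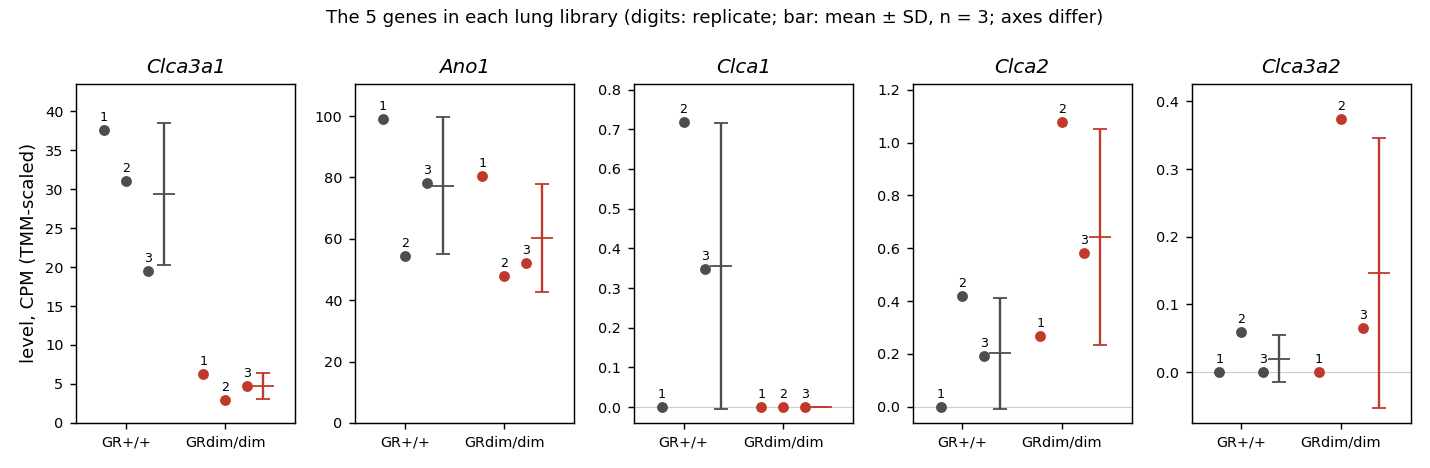
TMM-scaled CPM (vertical axes, linear, different in each panel) of the 5 genes in GR+/+ (grey) and GRdim/dim (red) lungs. Points are single mice with their replicate number, and bars are the mean ± SD of 3 mice. Clca3a1 lies at 19.5 to 37.6 CPM in GR+/+ and 2.99 to 6.30 CPM in GRdim/dim lungs without overlap, while the genotypes overlap for Ano1, Clca1, Clca2 and Clca3a2.

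Among the remaining CLCA genes, Clca3b had 4 reads in all 6 libraries, Clca4b 2, and Clca4a and the pseudogene Clca4c-ps 0. Clca3a1 therefore made up most of the CLCA reads. Its share was 99.5%, 96.3% and 97.3% in GR+/+ replicates 1, 2 and 3 and 94.4%, 67.3% and 87.1% in GRdim/dim replicates 1, 2 and 3. The share was lowest in GRdim/dim replicate 2, the library with the fewest Clca3a1 reads and the most Clca2 and Clca3a2 reads.

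Per kb of exons, Clca3a1 was at 7.54 ± 2.34 CPM in GR+/+ and 1.202 ± 0.425 CPM in GRdim/dim lungs (SD, n = 3). Ano1 was at 12.4 ± 3.57 and 9.65 ± 2.83 CPM per kb. The scramblase gene Ano6, the most abundant other anoctamin, was at 13.7 ± 0.687 and 13.8 ± 2.69 CPM per kb and its mean lay within the SD of Ano1 in GR+/+ but not in GRdim/dim lungs. Next came Ano10 with 6.20 ± 0.696 and 6.80 ± 0.686, Ano8 with 5.01 ± 0.805 and 5.07 ± 2.03, and Ano9 with 0.885 ± 0.0539 and 0.848 ± 0.197 CPM per kb. In GR+/+ lungs Clca3a1 thus stood between Ano1 and Ano10, and the mean of Ano10 lay within the SD of Clca3a1. In GRdim/dim lungs it stood between Ano8 and Ano9, and the mean of Ano9 lay within the SD of Clca3a1. Set against Ano1 per kb in the same library, Clca3a1 was at 60.8%, 91.3% and 40.0% in GR+/+ replicates 1, 2 and 3 and at 12.5%, 9.97% and 14.6% in GRdim/dim replicates 1, 2 and 3.

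**Figure D2:**
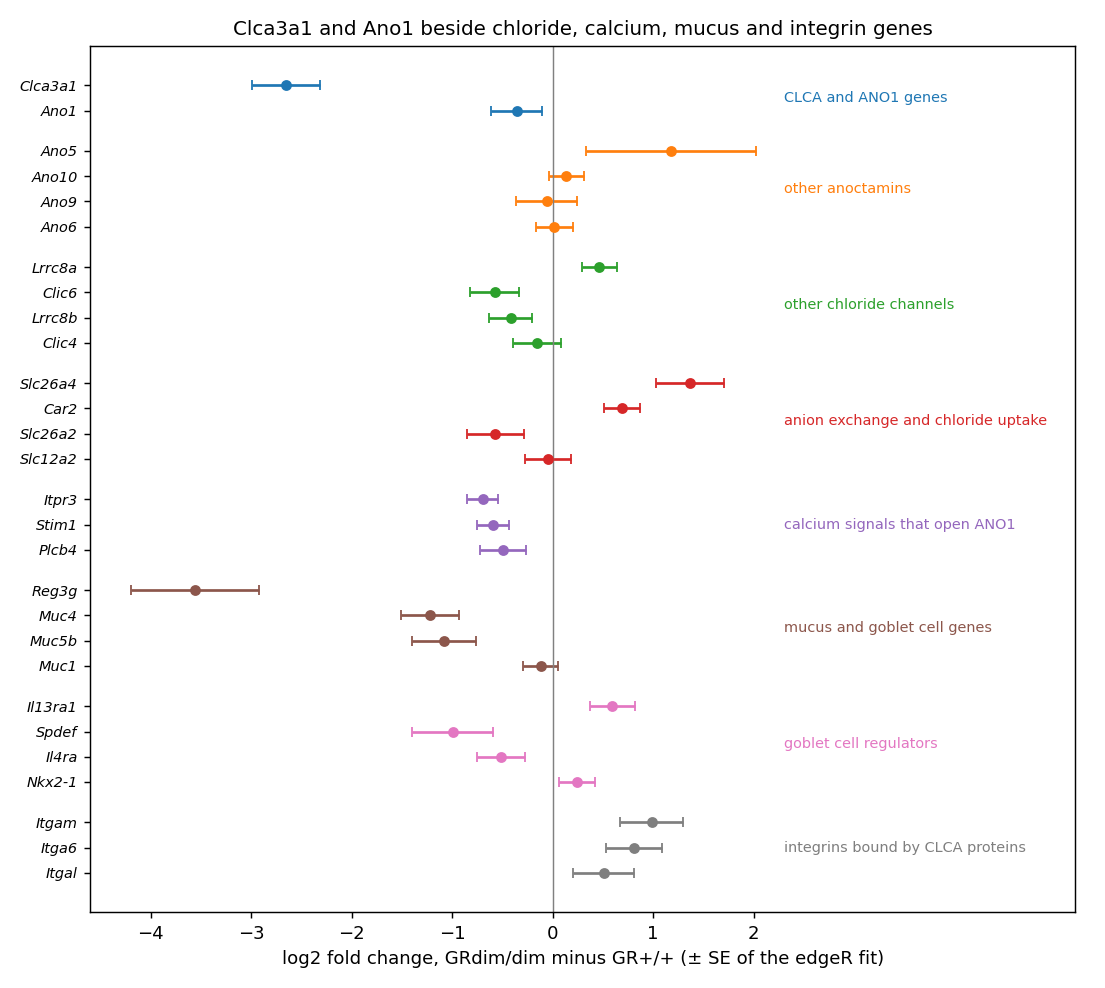
Log2 fold changes of GRdim/dim minus GR+/+ lungs (horizontal axis) with the SE of the edgeR fit, for Clca3a1, Ano1 and the named genes of 7 lists (colors). Clca3a1 at -2.65 and Reg3g at -3.56 lie farthest from 0, and Clca3a1 is the 1 gene shown that was a DEG.

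No tested gene around Clca3a1 was a DEG. Within 250 kb of the CLCA cluster, 16 genes outside the family are listed and 4 of them could be tested. Their log2 fold changes ran from -0.25 for Odf2l to 0.26 for Selenof, which codes for a selenoprotein of the endoplasmic reticulum, with adjusted p of 0.754 or more by edgeR. Sh3glb1, the nearest tested gene at 40.6 kb from the start of Clca3a1, was at -0.02 ± 0.17 (SE), and the heparan sulfate enzyme gene Hs2st1 at 0.06 ± 0.19. Around Ano1, 6 of 20 genes could be tested, and their log2 fold changes ran from -0.74 for the scaffold gene Shank2 (-0.37 without GR+/+ replicate 3) to 0.01 for Oraov1, with adjusted p of 0.471 or more. Ccnd1, which codes for cyclin D1, was at -0.45 ± 0.19 (SE), and Cttn, Ppfia1 and Fadd were at -0.20, -0.11 and -0.11. None of these genes around Ano1 was a DEG.

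**Figure D3:**
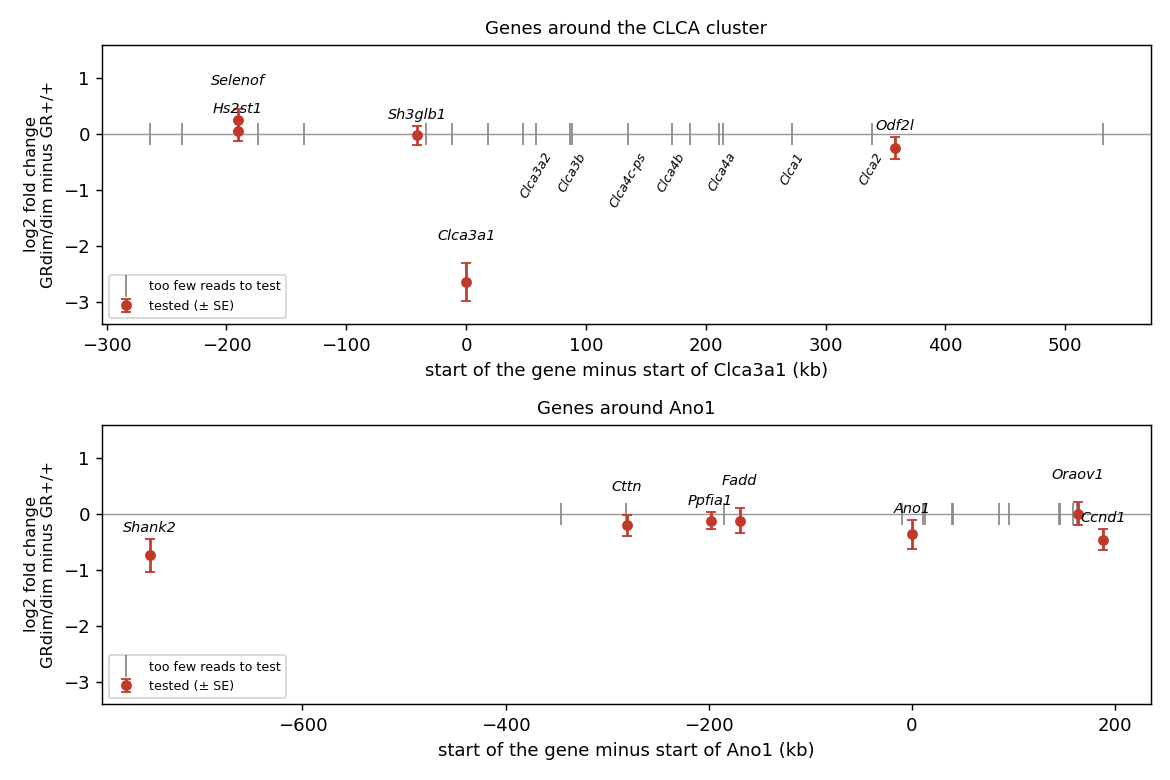
Log2 fold changes of GRdim/dim minus GR+/+ lungs (vertical axes, ± SE) against the distance of each gene's start from that of Clca3a1 (top) and of Ano1 (bottom), in kb. Points are tested genes and ticks are genes with too few reads to test. In the top panel Clca3a1, which was chosen on this contrast, lies at -2.65. The 4 tested neighbours outside the family lie at -0.25 to 0.26, and the other CLCA genes had too few reads to test.

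The start of Clca3a1 is shown because it held most of the CLCA reads, in lungs that differ in a transcription factor. The sequence is the 250 bases before its RefSeq start on GRCm38.p6, minus strand, at chr3:144760978-144761227.
Clca3a1: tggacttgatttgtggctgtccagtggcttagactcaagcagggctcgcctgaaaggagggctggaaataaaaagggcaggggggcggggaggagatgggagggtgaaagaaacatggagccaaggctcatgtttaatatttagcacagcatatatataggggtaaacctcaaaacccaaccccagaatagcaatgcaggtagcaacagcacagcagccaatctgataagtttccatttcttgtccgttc
It was searched on both strands for the palindrome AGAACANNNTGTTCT that GR dimers bind, for the single site AGAACA, which a receptor alone can bind, and for TATAAA, and none was found, so no base is in capitals. Of 32851 promoters of the same length, 0.00913% hold the palindrome, 16.1% the single site and 12.4% TATAAA. Every palindrome contains the single site. The window of Clca2 (chr3:145099107-145099356) holds the single site once, 206 to 201 bases before its RefSeq start. That of Ano1 (chr7:144738574-144738823) holds none of the motifs. Both these windows lie inside the gene spans given above, so the bases before those spans were not searched. A search of such a window says only whether these letters occur in it.

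The genes of the pathway were followed in 8 lists of 131 genes, of which 108 could be tested. None was a DEG by edgeR, 14 (13%) had an unadjusted p under 0.05 against 9.6% of all genes, and 21 (19.4%) did not overlap between genotypes against 14.8% of all genes. By DESeq2 5 of the listed genes (4.63%) were DEGs, Reg3g, Muc4, Muc5b, Itpr3 and Slc26a4, against 1.64% of all genes. The median log2 fold change over the lists was -0.04, and over all genes 0.01. The lists were drawn up with earlier results of these libraries known.

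Of 9 other anoctamins 5 could be tested and none was a DEG. Ano6 was at 132 to 195 CPM with a log2 fold change of 0.02 ± 0.18 (SE), Ano10 at 0.14 ± 0.18 and Ano9 at -0.06 ± 0.31. Ano5, known from muscle, was at 1.18 ± 0.85, and 142 of its 161 reads in GRdim/dim lungs came from replicate 2. Without that library its log2 fold change was -0.91.

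Of 30 other chloride channel genes 27 were tested, with no DEG and a median log2 fold change of -0.14. Lrrc8a, the required subunit of the volume-regulated anion channel, was at 30.3, 29.0 and 26.5 CPM in GR+/+ and 41.3, 36.2 and 40.9 CPM in GRdim/dim lungs (log2 fold change 0.46 ± 0.17, edgeR adjusted p = 0.431). All GRdim/dim libraries were above all GR+/+ libraries. Its partner Lrrc8b was at -0.42 ± 0.22, and between -0.68 and -0.27 with single GRdim/dim libraries left out. Clic6 was at -0.58 ± 0.24 without overlap (edgeR adjusted p = 0.491), but at -0.24 without GR+/+ replicate 3, and Clic4, which had the highest CPM of the list, at -0.15 ± 0.24. Cftr, the chloride channel opened by cyclic AMP, was at 20.1 to 50.02 CPM in GR+/+ and 28.2 to 37.4 CPM in GRdim/dim lungs, with a log2 fold change of 0.04 ± 0.31 that ran from -0.20 to 0.55 with single libraries left out.

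Of the 19 genes of anion exchange and chloride uptake all were tested and none was a DEG. Slc26a4, which codes for the chloride-bicarbonate exchanger pendrin, was at 1.55, 2.04 and 2.12 CPM in GR+/+ and 4.90, 3.69 and 6.25 CPM in GRdim/dim lungs. All GRdim/dim libraries were above the GR+/+ ones, with a log2 fold change of 1.36 ± 0.34 (SE, edgeR adjusted p = 0.216). Over 12 alternatives its adjusted p ran from 0.0234 with DESeq2 to 0.501. Car2, a carbonic anhydrase that supplies bicarbonate, was also without overlap, at 0.69 ± 0.17 (edgeR adjusted p = 0.225). Slc12a2, the cotransporter that loads cells with chloride, was at -0.04 ± 0.23 and the sulfate carrier gene Slc26a2 at -0.57 ± 0.29, or -0.16 without GR+/+ replicate 3.

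Of 24 genes for the calcium signals that open ANO1, 12 had a positive and 12 a negative log2 fold change, and none was a DEG. Itpr3, which codes for a calcium release channel of the endoplasmic reticulum, was at 142, 140 and 135 CPM in GR+/+ and 76.2, 92.3 and 88.7 CPM in GRdim/dim lungs. The genotypes did not overlap, and the log2 fold change was -0.69 ± 0.15 (SE, edgeR adjusted p = 0.152). Over 12 alternatives its adjusted p ran from 0.0145 with DESeq2 to 0.382. Stim1, the sensor that refills calcium stores, was also without overlap at -0.59 ± 0.16 (edgeR adjusted p = 0.261), as was the phospholipase gene Plcb4 at -0.49 ± 0.23, which was at -0.26 without GRdim/dim replicate 3.

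Among 20 mucus and goblet cell genes 13 were tested, and 10 of these had a negative log2 fold change, with a median of -0.52 and no DEG by edgeR. Reg3g, an antibacterial lectin of airway epithelium, was at 3.82, 7.42 and 5.23 CPM in GR+/+ and 1.02, 0.124 and 0.258 CPM in GRdim/dim lungs. The genotypes did not overlap, and the log2 fold change was -3.56 ± 0.63 (SE, edgeR adjusted p = 0.0714). It was a DEG without GRdim/dim replicate 1, at -4.87. The mucin gene Muc4 was at 29.7, 28.3 and 57.2 CPM in GR+/+ and 19.8, 13.6 and 16.2 CPM in GRdim/dim lungs (-1.22 ± 0.29, edgeR adjusted p = 0.196), with -0.81 without GR+/+ replicate 3. Muc5b, the main secreted mucin of healthy airways, was at 45.9, 46.1 and 83.5 CPM in GR+/+ and 16.8, 29.8 and 36.5 CPM in GRdim/dim lungs (-1.08 ± 0.32, edgeR adjusted p = 0.300). Both mucins lay lower in every GRdim/dim library and were highest in GR+/+ replicate 3. Over the alternatives the adjusted p ran from 1.2e-10 to 0.211 for Reg3g, from 6.9e-05 to 0.409 for Muc4 and from 0.000195 to 0.567 for Muc5b, and with DESeq2 it was 7.1e-07, 0.00796 and 0.0465. Muc1, with the highest CPM of the list, was at -0.12 ± 0.17.

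Of 20 goblet cell regulators 15 were tested and none was a DEG. Spdef, a transcription factor of goblet cells, was at 1.56 to 2.51 CPM in GR+/+ and 0.861 to 1.10 CPM in GRdim/dim lungs, with a log2 fold change of -0.996 ± 0.41 (edgeR adjusted p = 0.472). The receptor genes Il13ra1 and Il4ra were at 0.60 ± 0.22 (0.30 without GRdim/dim replicate 1) and -0.51 ± 0.24 (-0.29 without GR+/+ replicate 1), and the lung epithelial factor gene Nkx2-1 at 0.24 ± 0.18.

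The 5 genes for integrins that CLCA proteins can bind were all tested, and 4 had a positive log2 fold change. Itgam, the alpha subunit of the integrin Mac-1 of neutrophils and macrophages, was at 12.4, 10.95 and 6.88 CPM in GR+/+ and 27.3, 13.9 and 18.3 CPM in GRdim/dim lungs (0.98 ± 0.31, edgeR adjusted p = 0.342). Itga6, the partner of the beta 4 subunit, was at 0.81 ± 0.28 (edgeR adjusted p = 0.387), and at 0.38 without GRdim/dim replicate 1, and Itgal, the alpha subunit of LFA-1, at 0.51 ± 0.30 (0.27 without GR+/+ replicate 3 and 0.76 without GRdim/dim replicate 3). None was a DEG with the filter on low counts. Without the filter Itgam and Itga6, 2 of the 5 genes, were DEGs, against 1.66% of all 31368 genes of that fit. These 31368 include genes with too few reads to pass the filter, which the 5 integrin genes passed, so the shares are not of like genes. Over 12 alternatives the adjusted p ran from 0.0233 to 0.581 for Itgam and from 0.00734 to 0.624 for Itga6. Of the neutrophil markers 6 of 6 had a positive log2 fold change, with a summed level of 465, 325 and 239 CPM in GR+/+ replicates 1, 2 and 3 and 1076, 340 and 478 CPM in GRdim/dim replicates 1, 2 and 3. GRdim/dim replicate 1 thus stood highest, and without it the log2 fold change of S100a9 was 0.36 in place of 0.95. Their part in the integrin levels was not tested.

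Markers of the cells that could hold these RNAs were measured beside them, in 15 lists with 107 tested markers. By edgeR 0 of these were DEGs and 23 (21.5%) had an unadjusted p under 0.05, against 9.6% of all genes. By DESeq2 6 (5.61%) were DEGs (Chil3, Cldn5, Igkc, Retnlg, Scgb3a1 and Trac), against 1.64% of all genes. By edgeR without the filter on low counts 15 of 108 (13.9%) were, against 1.66% of all 31368 genes of that fit, which include genes with few reads. Ighm and Igkc, 2 of 107 (1.87%), were DEGs both with the replicate block and without GRdim/dim replicate 1, where the shares of all genes were 0.205% and 0.13%. For Clca3a1 the lists of interest are those of endothelium. The 10 markers of blood vessel endothelium summed to 2978 to 4537 CPM in GR+/+ and 3774 to 4332 CPM in GRdim/dim lungs, with a median log2 fold change of 0.07. Of these markers 6 had a positive and 4 a negative log2 fold change. Of the 10 markers 2 did not overlap between genotypes, against 14.8% of all genes, and both were higher in GRdim/dim lungs. They were Cldn5 at 0.94 (0.59 without GRdim/dim replicate 3) and Gja5 at 0.79. Among the 4 negative ones, Kdr was at -0.50 ± 0.21 and Pecam1 at -0.44 ± 0.21 (SE), both with overlap. Cdh5, the cadherin of endothelial junctions, was at -0.20 ± 0.26, and between -0.42 and -0.029 over 12 alternatives. Of the 8 lymphatic markers 7 were tested, Ccl21a being listed at 0 in every library. They summed to 557 to 755 CPM in GR+/+ and 674 to 1535 CPM in GRdim/dim lungs, with a median of 0.24. The hyaluronan receptor gene Lyve1 was at 398, 327 and 278 CPM in GR+/+ and 1152, 442 and 492 CPM in GRdim/dim lungs (1.06 ± 0.34, edgeR adjusted p = 0.359). Of the GRdim/dim sums, 1535 is that of replicate 1 and the others were 674 and 710. Without that library Lyve1 was at 0.49, and over 12 alternatives its adjusted p ran from 0.000216 to 0.613, the lowest without the filter on low counts.

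GR+/+ replicate 3, which had the lowest Clca3a1 of its group, also had the lowest summed level of several lists. Among these were smooth muscle (293 against 571 to 783 CPM in the other libraries), pericytes (240 against 423 to 578), fibroblasts (987 against 1260 to 2083), blood vessel endothelium (2978 against 3774 to 4537) and pulmonary vein cardiomyocytes (157 against 436 to 982). Its club and ciliated cell sums were the highest, at 31675 and 840 CPM. Without this library the log2 fold change was -2.88 for Clca3a1 and -0.35 for Ano1. Club cell markers, of the airway epithelium in which Ano1, Clca1 and the mucins are known, summed to 16697 to 31675 CPM in GR+/+ and 22404 to 28755 CPM in GRdim/dim lungs, with a median log2 fold change of 0.02. Scgb1a1, at 0.23 (0.034 to 0.55 over 12 alternatives), made up most of this sum. Of the 7 markers 4 had a positive and 3 a negative log2 fold change. The genotypes did not overlap in 2 of the 7, against 14.8% of all genes, and both were lower in GRdim/dim lungs. These were Scgb3a1 at -1.08 and Aldh1a1 at -0.51 (edgeR adjusted p of 0.289 and 0.471). Of the 9 smooth muscle markers 5 had a positive and 4 a negative log2 fold change, with a median of 0.08, and Acta2 was at 0.56 ± 0.30 with an adjusted p by edgeR of 0.605, and at 0.24 without GR+/+ replicate 3. B cell and T cell markers had 7 of 7 positive log2 fold changes each, with medians of 1.07 and 0.83, and alveolar macrophage markers 6 of 7 negative, with a median of -0.39. In these lists Ighm was at 2.22 ± 0.58, Lck at 0.68 ± 0.28 and Chil3 at -0.88 ± 0.21, and S100a9 of the neutrophil list was at 0.95 ± 0.38. The edgeR adjusted p was 0.286 for Ighm, 0.473 for Lck, 0.202 for Chil3 and 0.471 for S100a9. Over 12 alternatives it ran from 0.0215 to 0.567 for Ighm, which was a DEG with the replicate block (2.05) and without GRdim/dim replicate 1 (2.66), and from 0.00255 to 0.382 for Chil3. The range was 0.00332 to 0.759 for S100a9, a DEG in 1 alternative, without the filter on low counts. For Lck it was 0.332 to 0.817. The median was -0.24 for ciliated cells (Tppp3 at 0.07), -0.16 for alveolar type 2 cells (Sftpc at 0.17), -0.14 for alveolar type 1 cells (Ager at -0.07) and -0.06 for mesothelial cells (Krt19 at -0.11). It was 0.17 for pericytes (Pdgfrb at -0.14), 0.08 for fibroblasts (Pdgfra at 0.13) and 0.36 for pulmonary vein cardiomyocytes (Myh6 at -0.02). Cldn5, Gja5, Kdr, Pecam1, Scgb3a1 and Aldh1a1 were picked out after their values were seen. The part of these cells in the levels of the CLCA genes and Ano1 was not tested.

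**Figure D4:**
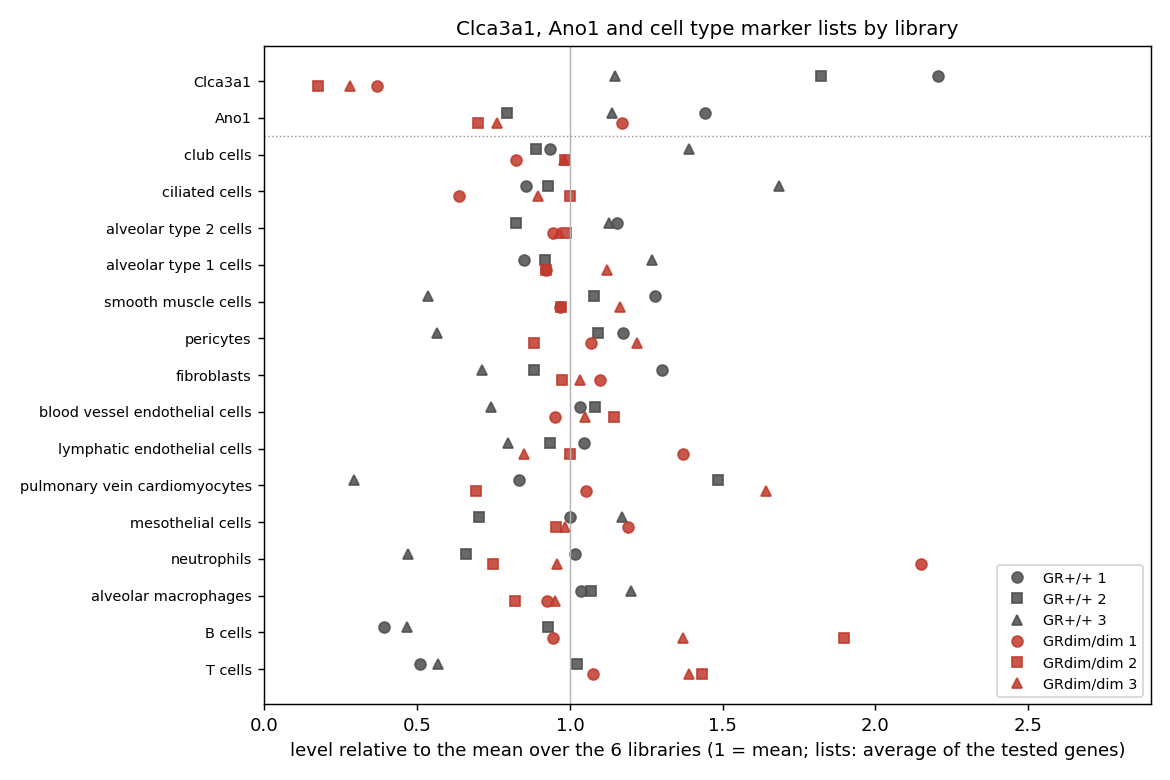
Level in each library relative to the mean over the 6 libraries (horizontal axis, 1 is the mean) for Clca3a1, Ano1 and 15 lists of cell type markers (average of the tested genes of a list). Grey marks are GR+/+ and red marks GRdim/dim mice, with a shape for each replicate. Only Clca3a1 and the alveolar macrophage list show every GRdim/dim mouse below every GR+/+ mouse, and the B and T cell lists show every GRdim/dim mouse above.

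The genes whose log2 CPM followed Clca3a1 most closely over the 6 libraries were Vangl1 (Pearson r = 0.992), Fst (0.989), Prkg2 (0.989), Tada2b (0.985) and Micall1 (0.982). These are descriptions over 6 libraries that share the difference between genotypes. Genes picked for following Clca3a1 tend to share its difference, so nothing is read from their adjusted p or DEG calls. Fst, which codes for the activin antagonist follistatin, was at 13.3, 8.80 and 5.84 CPM in GR+/+ and 2.91, 1.45 and 2.45 CPM in GRdim/dim lungs. Its order of libraries within GR+/+ was that of Clca3a1, and its log2 fold change was -2.04 ± 0.39 (edgeR adjusted p = 0.0964). It was a DEG in 3 of 12 alternatives, over which its adjusted p ran from 8.6e-06 to 0.302. Prkg2, a kinase gene of the cyclic GMP pathway, was at -1.07 ± 0.23 (edgeR adjusted p = 0.131), with a range of 0.00290 to 0.386 and a DEG in 2 of 12 alternatives, and Vangl1, a planar polarity gene, at -0.30 ± 0.17. For Ano1 genes among the closest were Zfp827 (r = 0.981), Kbtbd8 (0.976), Atp6v0a2 (0.975) and Rragb (0.974), with log2 fold changes of -0.35 to -0.15. The r of Clca3a1 with Ano1 was 0.578.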

How the data were processed

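Lung RNA of 3 GR+/+ and 3 GRdim/dim mice was sequenced by a commercial provider as poly(A)-captured libraries, 1 per mouse. The authors deposited raw counts of reads per gene, whole numbers without normalization or pooling. The submitters' processing notes name mm10 and DESeq2. The aligner, the counting tool and the use of strand are not given in the sources used here. Genotype and replicate number come from the sample titles, and every column of values belongs to 1 of the 6 libraries.

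For the test, edgeR 4.0.16 under R 4.3.3 was used: genes kept by filterByExpr, TMM factors, then glmQLFit (robust) and glmQLFTest, with p-values adjusted by Benjamini-Hochberg over 16568 genes. DESeq2 1.42.0 served as an alternative. The study's methods use DESeq2. Standard errors are from the edgeR fit, and log2 CPM values carry a prior count of 2. Libraries of 1 genotype differed by more than sampling noise (chi-square of 20.7 to 73.6 per degree of freedom) and were used as separate replicates. At these depths 1 read is worth 0.0317 to 0.0645 CPM, which limits Clca1, Clca2 and Clca3a2. An exact permutation test of 3 against 3 libraries cannot go below p = 0.1 and was not used. Coding sequences were aligned with Biopython 1.88, and promoters are RefSeq's.

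The members and gene lists were chosen with earlier results of these data known. The genes named are the 5 chosen genes, every DEG of each pathway list or otherwise the 3 with the smallest unadjusted p and the one with the highest CPM, the genes within 250 kb, the 5 closest genes by correlation for each tested gene, and the marker with the highest CPM and any DEG of each marker list. Some items that these rules cover are not reported here. Cftr was named besides, as background to ANO1, after its values were seen. The test was repeated with DESeq2, with RLE factors, with all genes kept, with only genes of 10 counts or more in all libraries, without the fold threshold, with a block for the replicate number, with sex-linked expression as a covariate, with the near-copies summed, and without single libraries.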

Additional observations from a re-analysis of the deposited data

How the results depend on the processing

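The log2 fold change of Clca3a1 was between -2.94 and -2.40 over 13 alternatives and it was a DEG in 10 of them. The 3 others were the fits without GR+/+ replicate 1 (-2.43), GR+/+ replicate 2 (-2.60) and GRdim/dim replicate 3 (-2.67). Over the 6 fits that left out 1 library it ran from -2.92 to -2.40. Ano1 ran from -0.62 to -0.14 over 12 alternatives, all of them without a DEG call, and from -0.62 to -0.14 with single libraries left out. The number of DEGs over all genes, 28, became 522 without a filter on low counts and 272 with DESeq2, and 4 to 22 with single libraries left out. The number in the pathway lists, 0, became 8 without the filter and 5 with DESeq2, and 0 to 1 with single libraries left out, the 1 being Reg3g. Of the 62 other genes named by the rule, 0 were DEGs in the edgeR fit as reported. With DESeq2 8 (12.9%) were and without the filter 12 (19.4%), against 1.64% and 1.66% of all genes. The fit without the filter held 31368 genes, which include genes with few reads. Many of the 62 genes were named for their small p, and the cause was not tested.

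In a check of pairing, deviations of libraries with the same replicate number correlated at 0.218, 0.0361 and -0.0548 for replicates 1, 2 and 3. GR+/+ replicates 1 and 2 correlated best with the GRdim/dim library of their own number, and GR+/+ replicate 3 with GRdim/dim replicate 2 (0.194). These few weak correlations cannot decide whether the numbers pair the mice. The edgeR fit as reported used no pairing. With the replicate block there were 34 DEGs in all and 0 in the pathway lists, and the log2 fold change was -2.66 for Clca3a1 and -0.35 for Ano1. Of the named markers, Ighm became a DEG with the replicate block (2.05). With the replicate block the sign turned for Ano6 (-0.0014), Myh6 (0.38) and Oraov1 (-0.0027). With the covariate for sex-linked expression it turned for Ano9 (0.020), Ager (0.011), Pdgfra (-0.26), Sh3glb1 (0.0083) and Oraov1 (-0.00073). With single libraries left out, log2 fold changes crossed 0 for Cftr (-0.20 to 0.55) and for 16 of the 62 genes named by the rule, none of them a DEG in the edgeR fit as reported. The 16 were Ano5 (-0.91 to 1.64), Ano9 (-0.27 to 0.059), Ano6 (-0.093 to 0.17), Clic4 (-0.41 to 0.0055), Slc12a2 (-0.20 to 0.22), Tppp3 (-0.11 to 0.33), Sftpc (-0.042 to 0.42), Ager (-0.26 to 0.20), Pdgfrb (-0.50 to 0.15), Pdgfra (-0.33 to 0.47), Myh6 (-0.50 to 0.71), Krt19 (-0.58 to 0.13), Hs2st1 (-0.11 to 0.15), Sh3glb1 (-0.096 to 0.071), Fadd (-0.19 to 0.026) and Oraov1 (-0.13 to 0.15). Zfp827 and Kbtbd8 kept their sign at -0.61 to -0.20 and -0.53 to -0.16. For Clca1, Clca2 and Clca3a2 the depth limits what can be seen.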
